A study of Homo sapiens with 60 samples.

Results

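Interferon-stimulated genes are the host defence genes that a cell switches on once interferon or viral nucleic acid has been sensed. The 41 members described here were chosen by symbol from a list of such genes and looked up among the 38342 gene names of the expression table. The rule itself uses no measured value, but the members and the further gene lists were chosen with earlier results of these data known. RNA came from MDA-MB-231 cells, an established human breast cancer line of mesenchymal, triple-negative character. The vehicle DMSO or BAY2506856 at 100, 300 or 1000 nM had been given for 1, 3, 6 or 24 h by the sample labels, whereas the design text of the series names 24 h only. This makes 16 groups and 60 libraries, 6 per time for DMSO and 3 per time for every dose. All groups share the same unmodified line, and the labels name neither a target of the compound nor an added interferon. Whether replicates were separate cultures is not stated, and each p-value therefore reflects only how these samples scatter. In bulk RNA from a cell line, more cells expressing a gene and more RNA per cell cannot be told apart.

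Type I interferons bind the receptor IFNAR1/IFNAR2, whose kinases JAK1 and TYK2 phosphorylate STAT2. With IRF9 it enters the complex ISGF3, which binds the interferon-stimulated response element (ISRE), while interferon gamma acts mainly through the gamma-activated site (GAS). The induced proteins sense viral RNA, block its translation or replication, modify other proteins with ISG15 or ADP-ribose, and improve antigen presentation. Many cancer lines express part of this set without added interferon.

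Expression is given in FPKM (fragments per kilobase per M reads), computed back from the deposited log2(FPKM + 1). Libraries held between 0.475 and 86.5 M recovered reads, with a median of 11.2 M. They fell into 3 types without any label to match, which 11 pseudogenes and the mitochondrial transcript MT-ND6 separate. The first type held 41 libraries with 7.37 to 86.5 M reads, the second 13 libraries with 0.475 to 30.8 M reads, and the third 6 DMSO libraries from 1 and 3 h. At 24 h, 1000 nM replicates 1 and 3, 300 nM replicate 2 and DMSO replicate 2 were of the second type, and the last of these was the shallowest library of all at 0.475 M reads. Many results at 24 h, though not all, therefore stand beside their value within the first type. There 1000 nM has a single library that is assumed to vary like the other groups. Markers of the line were present, with a summed level of 797 to 808 FPKM for 7 genes including VIM and CD44 at 1000 nM after 24 h and 758 to 830 FPKM in DMSO, although SPARC was at most 0.450 FPKM in any library. The oestrogen and progesterone receptor genes ESR1 and PGR were at most 0.00263 and 0.0128 FPKM. The other 3 luminal and receptor markers, ERBB2, CDH1 and EPCAM, did reach 1 FPKM in at least 3 libraries. All 5 together summed to 13.5 to 17.0 FPKM in DMSO at 24 h.

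Of the 41 members, 36 reached 1 FPKM in at least 3 libraries and were tested among 15866 genes. BST2 had the highest mean over the 60 libraries at 99.0 FPKM, followed by IFIT3 at 48.8, PSMB8 at 43.0 and ISG15 at 41.0 FPKM. The 5 members below the filter were IFI44L, MX2, CMPK2, EPSTI1 and IRF9, with highest values of 0.403, 0.691, 0.620, 1.09 and 0.286 FPKM in any library. IRF9, the DNA-binding subunit of ISGF3, thus averaged 0.0666 FPKM, while 48.4% of its exon bases overlap another gene on the same strand (AL136295.5, GENCODE 29), so its value is uncertain. The members OAS1, ISG20, RSAD2 and TRIM22 passed mostly through treated 24 h libraries, which gave 8 of 8, 5 of 5, 8 of 9 and 6 of 7 of their libraries at 1 FPKM. A gene kept in this way had to be high in treated cells, so counts are also given for the 32 other tested members.

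RefSeq promoter windows on GRCh38.p14, from 250 bases before to 50 bases after the start site, were found for 33 of the 41 members. The ISRE core GAAANNGAAA, searched on both strands with overlapping matches counted, occurred in 20 of the 33 (60.6%), against 3.65% of 27305 promoters of the same length. The GAS core TTCNNNGAA, which reads the same on both strands, occurred in 9 (27.3%), against 7.88% of all. A match describes letters and does not show that a factor binds there. Among tested members with a window, 12 of the 18 with an ISRE core and 7 of the 11 without one were called higher at 1000 nM after 24 h, with median log2 changes of 0.48 and 0.46. Over all genes 19.1% were called higher. ISG20 with a core, and OAS1 and RSAD2 without one, are among those kept mostly by treated libraries, so these counts and medians are a description. The 250 bases before the start site are shown for 4 members whose values differ most plainly in the sections that follow, IFIT1 and HERC5 (higher with time in DMSO), DDX60 (higher with time and with compound) and IFI35 (the largest change with compound). Capitals mark the ISRE core, or in IFI35, which has none in its window, the GAS core.

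IFIT1 (chr10:89392373-89392622, plus strand, first ISRE core at -116): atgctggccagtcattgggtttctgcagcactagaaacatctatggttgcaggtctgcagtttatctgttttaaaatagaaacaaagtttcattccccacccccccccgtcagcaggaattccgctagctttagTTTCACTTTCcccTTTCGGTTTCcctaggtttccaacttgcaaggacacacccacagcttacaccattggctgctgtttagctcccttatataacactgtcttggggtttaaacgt
HERC5 (chr4:88456869-88457118, plus strand, first ISRE core at -125): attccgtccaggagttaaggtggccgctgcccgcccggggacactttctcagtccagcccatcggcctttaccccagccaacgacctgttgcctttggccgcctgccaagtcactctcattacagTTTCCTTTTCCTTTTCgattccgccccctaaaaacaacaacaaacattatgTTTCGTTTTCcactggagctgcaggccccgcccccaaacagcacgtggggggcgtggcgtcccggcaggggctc
DDX60 (chr4:168318753-168319002, minus strand, first ISRE core at -88): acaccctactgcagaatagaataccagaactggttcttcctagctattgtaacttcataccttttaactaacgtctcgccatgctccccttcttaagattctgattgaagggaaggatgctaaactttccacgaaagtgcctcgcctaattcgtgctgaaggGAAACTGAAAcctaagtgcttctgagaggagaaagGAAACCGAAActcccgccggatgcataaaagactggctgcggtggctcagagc
IFI35 (chr17:43006534-43006783, plus strand, GAS core at -22): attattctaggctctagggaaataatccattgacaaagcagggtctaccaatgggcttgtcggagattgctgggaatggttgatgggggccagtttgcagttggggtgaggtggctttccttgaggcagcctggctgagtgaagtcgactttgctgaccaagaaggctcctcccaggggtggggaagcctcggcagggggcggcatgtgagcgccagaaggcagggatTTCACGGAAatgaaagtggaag

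After 24 h, interferon-stimulated genes such as IFI35, OAS2, SAMD9L and MX1 were higher in cells given the compound at any dose than in DMSO cells of the same time. The largest log2 change at 1000 nM was that of IFI35, with a ratio of mean FPKM of 2.58. Of the 36 tested members, 15 were called higher at 100 nM, 18 at 300 nM and 24 at 1000 nM by limma at a Benjamini-Hochberg adjusted p under 0.05. The same test called 10.5%, 16.5% and 19.1% of all genes higher at these doses, and 9.2%, 14.2% and 15.6% lower. It called 0 members lower at any dose, with 20, 23 and 25 members at an unadjusted p under 0.05 in either direction, against 30.3%, 38.8% and 42.7% of all genes. The median member changed by 0.33, 0.38 and 0.47 on the log2 scale at 100, 300 and 1000 nM, against 0.05, 0.05 and 0.03 for all genes tested. Among the 32 members left after setting aside those kept mostly by treated libraries, 13, 16 and 20 were higher. Counted reads tested with voom called 17, 19 and 20 of the 36 higher and 0 lower, and these 36 include the members kept mostly by treated libraries. Over all genes voom called 9.28%, 15.8% and 14.7% higher and 11.5%, 23.6% and 18.0% lower.

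**Figure D1:**
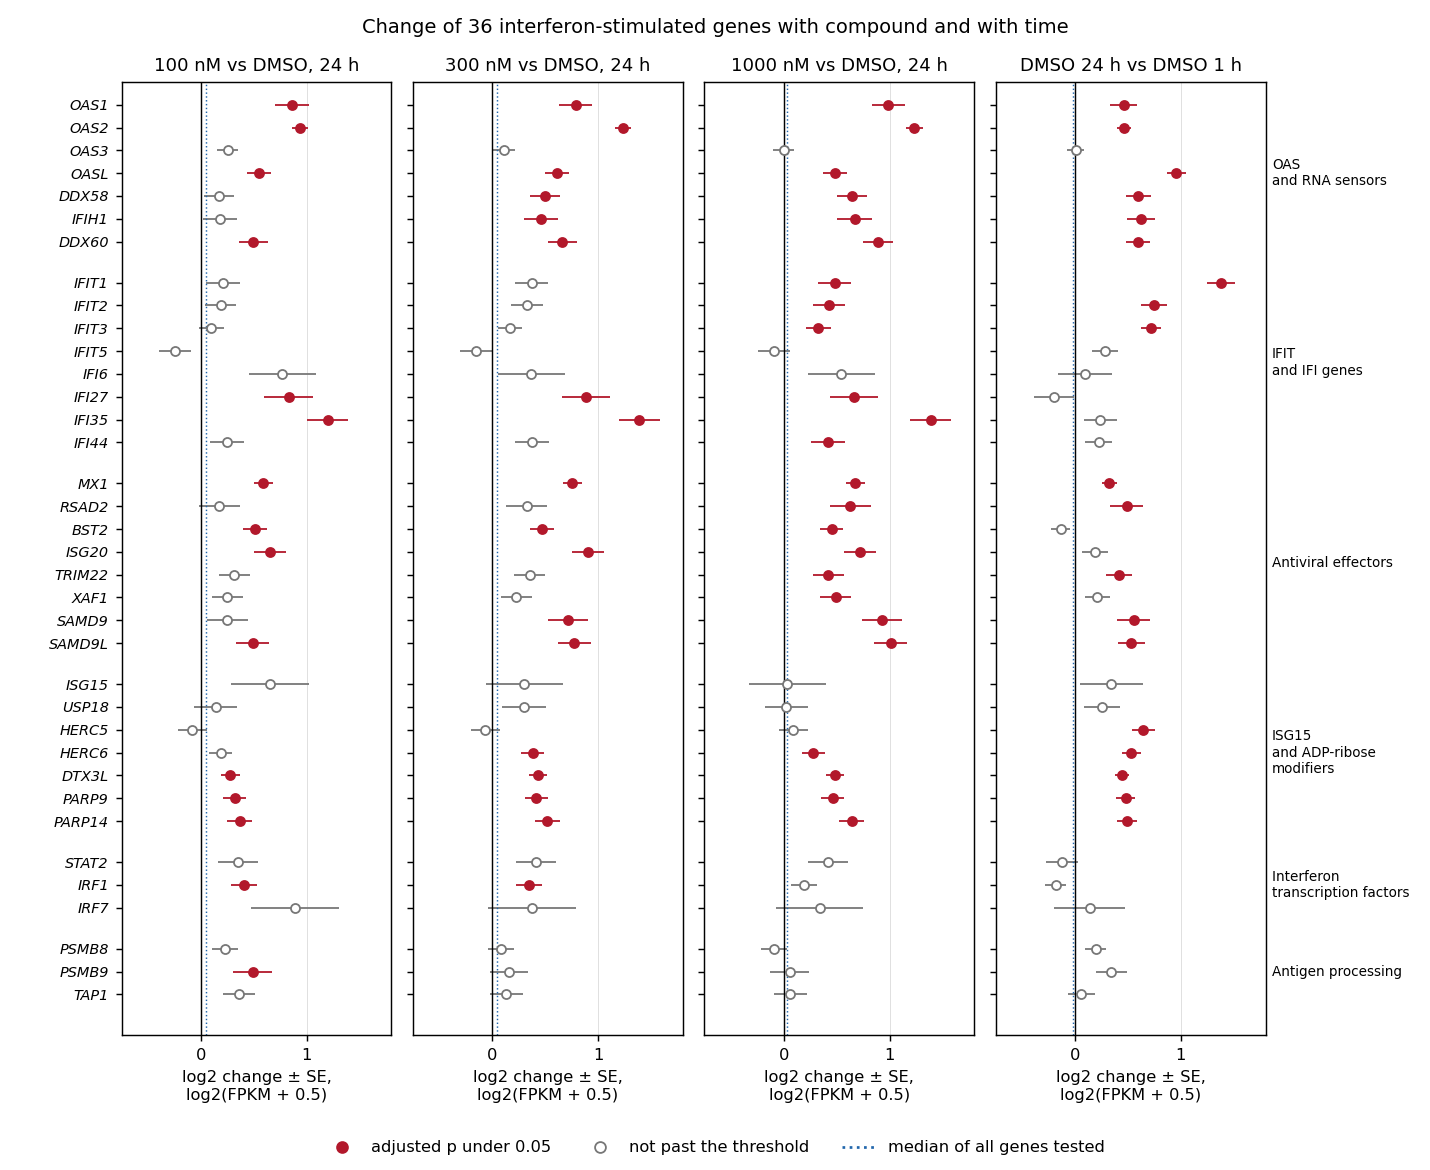
Log2 change with its standard error (horizontal axis, log2(FPKM + 0.5)) of the 36 tested members, grouped by role, for 100, 300 and 1000 nM against DMSO at 24 h and for DMSO at 24 h against 1 h. Filled points are past an adjusted p of 0.05 and the dotted line is the median of all genes tested; the points for OAS2 and IFI35 lie farther right with compound than with time, and the reverse holds for IFIT1.

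Within the first library type, 30 members were higher at 100 nM, 27 at 300 nM and 19 at 1000 nM, against 19%, 22.3% and 18.1% of all genes. Among the 32 members outside the group kept mostly by treated libraries, 26 were higher at 100 nM and 24 at 300 nM in this setting. Of all 36, the 6 not called at 100 nM were IFIT3, IFIT5, IFI44, ISG15, USP18 and HERC5. IFIT5 was called lower at 300 nM (-0.22, adjusted p = 0.0273) and at 1000 nM (-0.33, adjusted p = 0.0128), and HERC5 was called lower at 300 nM (-0.20, adjusted p = 0.0372). The order of the counts over the doses was thus the reverse of that over all libraries, and the first type held 3, 2 and 1 treated libraries at 100, 300 and 1000 nM. How far library type sets either order was not tested.

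The oligoadenylate synthase (OAS) genes and RNA sensors were among the members with the largest changes. Of 7 members, 4 were higher at 100 nM, 6 at 300 nM and 6 at 1000 nM, and without OAS1, which was kept by treated libraries alone, 3, 5 and 5 of 6. The shares called higher over all genes were 10.5%, 16.5% and 19.1%. OAS2, which makes the oligoadenylates that activate RNase L, measured 5.61, 7.15 and 7.43 FPKM as the lowest, median and highest of 6 DMSO libraries at 24 h. Its values in replicates 1, 2 and 3 were 13.7, 13.8 and 13.6 FPKM at 100 nM, 16.1, 19.2 and 15.8 FPKM at 300 nM, and 18.6, 15.9 and 16.5 FPKM at 1000 nM. Every treated library lay above every DMSO library. The log2 changes were 0.94 ± 0.08, 1.23 ± 0.08 and 1.23 ± 0.08 (SE; adjusted p = 5.44e-13, 1.02e-17 and 8.27e-18), and the change at 1000 nM was 1.09 (adjusted p = 2.5e-11) within the first type.

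OAS1, which encodes another of these synthases, was far less abundant, at 0.232, 0.494 and 0.657 FPKM as the lowest, median and highest DMSO value. It measured 1.16, 1.36 and 1.24 FPKM at 100 nM, 1.48, 0.659 and 1.52 FPKM at 300 nM, and 1.36, 1.54 and 1.36 FPKM at 1000 nM. The low 300 nM value came from replicate 2, a library of the second type with 1.89 M reads, and still lay above the highest DMSO value. Its fitted change at 1000 nM was 0.99 ± 0.16, and 1.06 within the first type. Since only treated 24 h libraries brought OAS1 past the filter, these values are a description. OASL, a catalytically inactive OAS-like protein that enhances RIG-I signalling, measured 8.38, 9.59 and 10.9 FPKM in DMSO, then 14.4, 14.8 and 13.4 at 100 nM, 15.7, 13.1 and 15.9 at 300 nM, and 12.8, 15.1 and 12.8 FPKM at 1000 nM. Its groups did not overlap with DMSO either, and the change at 1000 nM was 0.48 ± 0.11 (adjusted p = 0.00059). The fourth OAS gene, OAS3, was not past the threshold at 100, 300 or 1000 nM, with log2 changes of 0.25, 0.11 and 0.00, but was called at 100 nM (0.23) and 300 nM (0.22) within the first type.

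DDX60, a helicase that takes part in RIG-I-like receptor signalling, measured 5.55, 5.83 and 6.43 FPKM as the lowest, median and highest DMSO value at 24 h. It reached 8.26, 8.68 and 8.79 FPKM at 100 nM, 8.81, 12.1 and 8.55 at 300 nM, and 14.1, 9.02 and 11.8 FPKM at 1000 nM. All treated libraries exceeded all DMSO libraries, and within each of the 2 higher doses the second-type libraries were highest. DDX60 rose by 0.89 ± 0.14 at 1000 nM (adjusted p = 9.32e-07), and by 0.59 within the first type. The RNA sensors DDX58 (RIG-I) and IFIH1 (MDA5) rose by 0.64 and 0.67 at 1000 nM. In first-type libraries these changes were 0.21 (adjusted p = 0.0614) for DDX58 and 0.35 (adjusted p = 0.018) for IFIH1.

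Among the IFIT and IFI genes, IFI35 and IFI27 were higher at every dose. The highest values of IFIT1, IFIT2 and IFIT3 at 300 and 1000 nM came from second-type libraries. Those libraries were also the shallowest of their groups, at 1.89, 2.27 and 2.58 M reads. The part of library type or depth was not tested. IFIT proteins bind foreign RNA and limit its translation, while the IFI genes are a mixed group named for interferon induction. Of the 8 tested members, 2 were higher at 100 nM, 2 at 300 nM and 6 at 1000 nM, against 10.5%, 16.5% and 19.1% of all genes. IFI35, which encodes a leucine zipper protein, measured 5.23, 13.1 and 15.7 FPKM as the lowest, median and highest DMSO value at 24 h. Its treated values were 27.9, 28.6 and 25.0 FPKM at 100 nM, 34.5, 25.9 and 33.4 at 300 nM, and 32.1, 36.2 and 25.4 FPKM at 1000 nM. The groups did not overlap, and the lowest value in DMSO, at 300 nM and at 1000 nM came from a second-type library each time. IFI35 rose by 1.20 ± 0.19, 1.39 ± 0.19 and 1.39 ± 0.19 at 100, 300 and 1000 nM (adjusted p = 5.62e-06, 9.68e-08 and 8.5e-08), with 0.99, 1.31 and 1.398 within the first type.

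IFIT1, which recognises RNA caps that lack ribose methylation, measured 21.1, 22.8 and 27.3 FPKM in DMSO at 24 h. It measured 27.0, 27.0 and 27.5 FPKM at 100 nM, 26.8, 40.2 and 26.3 at 300 nM, and 37.0, 24.6 and 39.2 FPKM at 1000 nM. All values above 30 FPKM were from second-type libraries, and the first-type 1000 nM library lay inside the DMSO range. The change at 1000 nM was 0.48 ± 0.16 (adjusted p = 0.0131), which fell short within the first type (0.11, adjusted p = 0.461). Without 1000 nM replicate 1 or 3 the adjusted p was 0.0989 or 0.137.

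IFIT2, a partner of IFIT1 and IFIT3 in one complex, measured 25.4, 27.4 and 41.4 FPKM in DMSO, 31.5, 32.3 and 35.8 at 100 nM, 34.6, 43.6 and 32.7 at 300 nM, and 41.6, 31.3 and 47.0 FPKM at 1000 nM. IFIT3, which stabilises IFIT1, measured 58.1, 65.2 and 74.3 FPKM in DMSO, 67.0, 68.9 and 73.5 at 100 nM, 69.1, 84.0 and 67.0 at 300 nM, and 89.8, 64.5 and 94.4 FPKM at 1000 nM. In both genes the treated groups overlapped with DMSO, and the highest value of DMSO and of each of the 2 higher doses came from a second-type library. At 1000 nM the changes were 0.43 for IFIT2 (adjusted p = 0.0211) and 0.33 for IFIT3 (adjusted p = 0.0217), whereas first-type libraries alone gave 0.20 and 0.03 (adjusted p = 0.108 and 0.879). Without 1000 nM replicate 1 or 3 the adjusted p was 0.0917 or 0.192 for IFIT2 and 0.145 or 0.210 for IFIT3.

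IFI27, which encodes a small mitochondrial and nuclear envelope protein, rose by 0.83, 0.88 and 0.67 at 100, 300 and 1000 nM, and by 0.66, 0.90 and 1.01 within the first type. Leaving out replicate 2 of either 1000 nM or DMSO ended its call at 1000 nM, with an adjusted p of up to 0.216. IFI44 was at 0.42 (adjusted p = 0.034) at 1000 nM and at 0.12 (adjusted p = 0.39) within the first type, and its adjusted p was up to 0.290 when 1000 nM replicate 1 or DMSO replicate 2 was left out. IFI6, an inhibitor of apoptosis, and IFIT5 were not past the threshold at any dose over all libraries. Their changes at 100, 300 and 1000 nM were 0.77, 0.37 and 0.55 for IFI6, and -0.24, -0.16 and -0.09 for IFIT5.

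**Figure D2:**
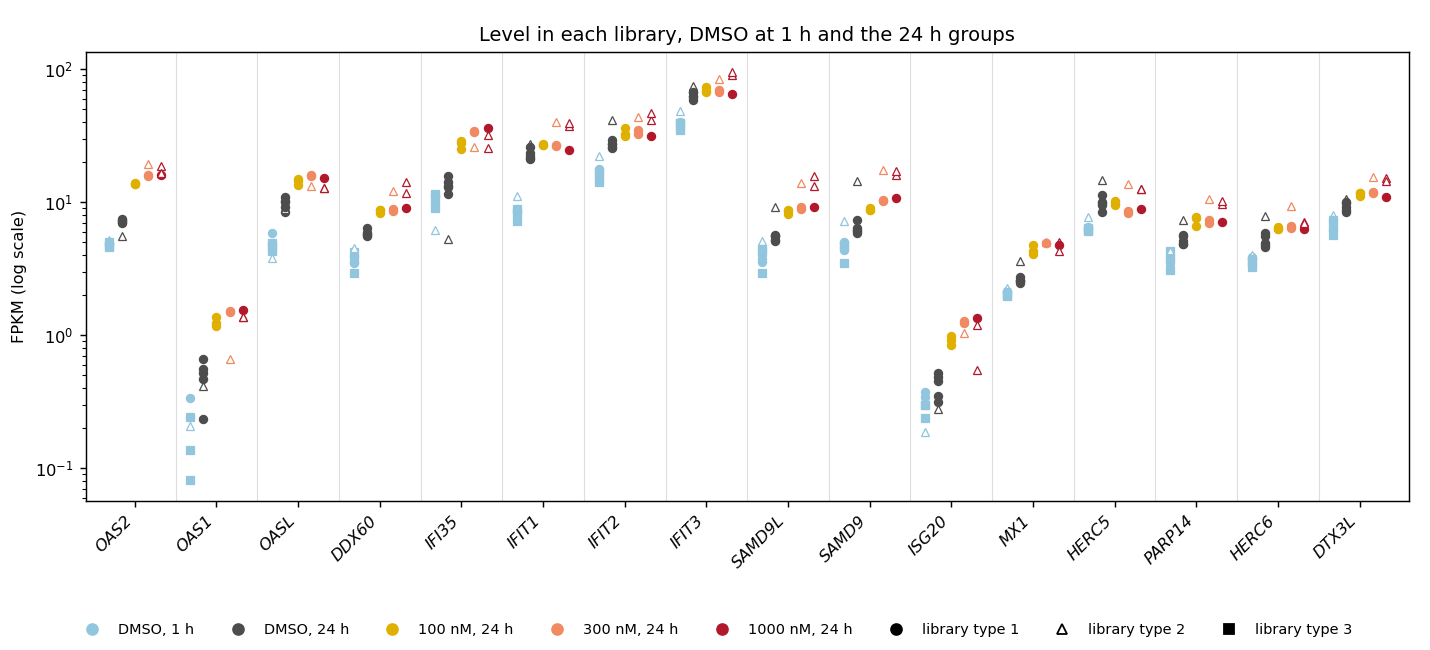
FPKM on a log scale in each library of DMSO at 1 h, DMSO at 24 h and 100, 300 and 1000 nM at 24 h, for the 16 members with values in the text. Circles, triangles and squares are library types 1, 2 and 3; for OAS2 every treated point lies above every DMSO point, whereas for IFIT1, IFIT3 and HERC5 at 1000 nM the triangles, but not the circle, lie above the 24 h DMSO circles.

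Of the direct antiviral effectors, ISG20, RSAD2 and TRIM22 passed the filter mostly through treated 24 h libraries. Of the other 5 tested members, MX1, BST2, XAF1, SAMD9 and SAMD9L, 3 were called at 100 nM, 4 at 300 nM and 5 at 1000 nM in the fit over all libraries. That fit called 10.5%, 16.5% and 19.1% of all genes higher at these doses. The paralogues SAMD9 and SAMD9L, which restrict poxviruses and slow translation, changed most. SAMD9L measured 5.10, 5.54 and 9.26 FPKM as the lowest, median and highest DMSO value at 24 h. Its treated values were 8.15, 8.64 and 8.72 FPKM at 100 nM, 9.20, 13.9 and 8.87 at 300 nM, and 13.2, 9.20 and 15.6 FPKM at 1000 nM. The highest DMSO value was that of the second-type library, and the other 5 DMSO libraries, at up to 5.61 FPKM, lay below every treated library. SAMD9L rose by 1.01 ± 0.16 at 1000 nM (adjusted p = 6.55e-07), and by 0.72 (adjusted p = 2.29e-06) within the first type.

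SAMD9 measured 5.88, 6.29 and 14.5 FPKM in DMSO, 8.96, 8.70 and 8.66 at 100 nM, 10.4, 17.4 and 10.2 at 300 nM, and 15.9, 10.7 and 17.2 FPKM at 1000 nM. Again the only DMSO value above the treated range at 100 nM came from the second-type library. SAMD9 rose by 0.93 ± 0.19 at 1000 nM (adjusted p = 0.000111), and by 0.71 within the first type. At 100 nM the whole set of libraries gave 0.25 (adjusted p = 0.402), and the first type alone gave 0.44 (adjusted p = 5.82e-05).

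MX1, a dynamin-like GTPase that traps viral nucleoproteins, measured 2.47, 2.59 and 3.60 FPKM in DMSO, 4.77, 4.32 and 4.05 at 100 nM, 4.95, 5.04 and 4.89 at 300 nM, and 5.01, 4.73 and 4.31 FPKM at 1000 nM. No treated library overlapped with DMSO, whichever its type. MX1 rose by 0.59, 0.76 and 0.68 ± 0.09 at 100, 300 and 1000 nM (adjusted p = 1.89e-06, 2.38e-09 and 2.65e-08). ISG20, an exonuclease that degrades viral RNA, measured 0.281, 0.399 and 0.523 FPKM in DMSO, 0.840, 0.976 and 0.918 at 100 nM, 1.29, 1.03 and 1.23 at 300 nM, and 0.550, 1.33 and 1.18 FPKM at 1000 nM. Its fitted change at 1000 nM was 0.72 ± 0.15, a description only, since treated 24 h libraries alone brought ISG20 past the filter.

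BST2 (tetherin), which holds budding virus particles at the cell surface, rose at every dose, by 0.51, 0.47 and 0.45 at 100, 300 and 1000 nM. Its values at 1000 nM were 127, 139 and 108 FPKM, against 68.3 to 106 FPKM in DMSO. Less firm were RSAD2 (viperin), which makes an antiviral nucleotide, at 0.63, the restriction factor TRIM22 at 0.42, and the apoptosis factor XAF1 at 0.49, each called at 1000 nM, though RSAD2 and TRIM22 were kept mostly by treated libraries. In first-type libraries the adjusted p was 0.0673 for RSAD2, 0.431 for TRIM22 and 0.117 for XAF1. RSAD2 and TRIM22 lost their calls without 1000 nM replicate 1 or 3 (adjusted p up to 0.0803 and 0.179), and XAF1 without replicate 3 (0.109).

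ISG15 is a ubiquitin-like protein that HERC5 attaches to other proteins and USP18 removes, and DTX3L, PARP9 and PARP14 act in ADP-ribosylation and ubiquitin signalling. In this group 3 of 7 members were higher at 100 nM, 4 at 300 nM and 4 at 1000 nM, against 10.5%, 16.5% and 19.1% of all genes. PARP14 measured 4.81, 5.32 and 7.28 FPKM as the lowest, median and highest DMSO value at 24 h, 7.66, 6.56 and 7.54 at 100 nM, 7.31, 10.5 and 6.93 at 300 nM, and 9.64, 7.11 and 10.2 FPKM at 1000 nM. The highest DMSO value was again that of the second-type library, and the other 5 lay below all treated libraries. PARP14 rose by 0.64 ± 0.12 at 1000 nM (adjusted p = 1.66e-05), and by 0.42 within the first type.

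DTX3L measured 8.42, 9.50 and 10.6 FPKM in DMSO, 11.2, 11.7 and 11.8 at 100 nM, 12.0, 15.5 and 11.7 at 300 nM, and 15.2, 10.9 and 14.5 FPKM at 1000 nM, with no overlap. It rose by 0.48 ± 0.09 at 1000 nM (adjusted p = 1.13e-05), and by 0.23 (adjusted p = 0.0483) within the first type. PARP9, its binding partner from a shared promoter region, rose by 0.46 and, within the first type, by 0.31. HERC6, a relative of HERC5, measured 4.58, 5.24 and 7.84 FPKM in DMSO, 6.22, 6.26 and 6.51 at 100 nM, 6.59, 9.29 and 6.35 at 300 nM, and 7.14, 6.26 and 6.96 FPKM at 1000 nM. Its treated libraries lay above all DMSO libraries except that of the second type. The change at 1000 nM was 0.28 ± 0.11 (adjusted p = 0.0437), and it missed the threshold without any 1 of 1000 nM replicates 1 and 3 and DMSO replicates 1, 3, 5 and 6 (adjusted p up to 0.162).

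HERC5 itself was not past the threshold at any dose. It measured 8.37, 9.87 and 14.7 FPKM in DMSO, 9.44, 9.91 and 10.1 at 100 nM, 8.22, 13.8 and 8.63 at 300 nM, and 12.5, 8.90 and 12.4 FPKM at 1000 nM. The 4 second-type libraries of 24 h gave the 4 highest values, and all others lay between 8.22 and 11.2 FPKM. Its change at 1000 nM was 0.09 ± 0.14 (adjusted p = 0.663), and it turned to -0.12 (adjusted p = 0.378) within the first type. ISG15 spread widely within groups, at 52.5, 70.5 and 21.4 FPKM at 1000 nM and 18.6 to 66.6 FPKM in DMSO, and its change of 0.03 ± 0.37 (adjusted p = 0.957) could not be told from 0. USP18, which also restrains interferon signalling at the receptor, was at 0.03 (adjusted p = 0.943).

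Of the 6 tested genes of interferon transcription factors and of antigen processing, IRF1 and PSMB9 passed limma's threshold at some dose. IRF1, an activator of many of the other members, was higher at 100 nM (0.41, adjusted p = 0.0118) and at 300 nM (0.35, adjusted p = 0.0247), and was at 0.19 (adjusted p = 0.23) at 1000 nM. The first of these calls was lost without 100 nM replicate 1 (adjusted p = 0.0642), and the second without 300 nM replicate 1 or 3 or DMSO replicate 2 (up to 0.144). STAT2, a subunit of ISGF3, measured 6.99, 7.16 and 6.34 FPKM at 1000 nM, against 4.39 to 5.54 FPKM in DMSO. Although these groups did not overlap, its change of 0.41 ± 0.19 missed the threshold (adjusted p = 0.0852), and first-type libraries gave 0.50 (adjusted p = 0.000186). IRF7, which drives interferon genes, was at 0.34 ± 0.41 (adjusted p = 0.568), with 3.42, 6.58 and 1.35 FPKM at 1000 nM against 1.36 to 3.98 FPKM in DMSO. IRF7 was called higher in first-type libraries, at 1.17 (adjusted p = 0.0141).

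PSMB9, a catalytic subunit of the immunoproteasome, was called at 100 nM (0.49, adjusted p = 0.0489) and was at 0.16 at 300 nM and 0.06 at 1000 nM. Its call was lost without any 1 of the 3 libraries of 100 nM or DMSO replicates 2 or 4 (adjusted p up to 0.173). PSMB8, another such subunit, was at 0.23, 0.08 and -0.10, and the peptide transporter gene TAP1 was at 0.36, 0.13 and 0.06. TAP1 was called at each of the 3 doses within the first type, at 0.33, 0.33 and 0.30. Part of the exon bases of XAF1, IRF1 and PSMB8 (38.3%, 22.0% and 20.6%) overlap a gene on the opposite strand, and the sources used here do not give whether counting used the strand.

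Before 24 h, calls with the compound were rare among members and among all genes alike, and OASL was the 1 member called. At 1 h limma called 0 members at 100, 300 and 1000 nM, where it called 0% of all genes, with 1, 0 and 4 members at an unadjusted p under 0.05 (5.1%, 1.21% and 10.3% of all genes). At 3 h it again called 0 members at each dose, against 0.0693%, 0.126% and 0.132% of all genes, with 1, 4 and 2 members at an unadjusted p under 0.05 (5.88%, 5.88% and 7.41% of all genes), and voom on the counted reads called 0 at both times. At 6 h the counts were 0, 1 and 0 members, against 0.863%, 1.67% and 2.01% of all genes, with 2, 4 and 3 at an unadjusted p under 0.05 (5.16%, 9.86% and 7.8% of all genes). At that time 33, 22 and 31 of the 36 members had a log2 change above 0, with medians of 0.09, 0.07 and 0.09 against 0.01, -0.01 and 0.00 for all genes. The member called was OASL at 300 nM, which was at 7.96 ± 0.432 FPKM against 5.80 ± 0.607 FPKM in DMSO (SD, n = 3 and 6; log2 change 0.43 ± 0.11, adjusted p = 0.0291). It was not called without any 1 of the 3 treated libraries or DMSO replicates 3 or 5. First-type libraries gave calls at 6 h for OAS2 at 100 nM (0.21, adjusted p = 0.0316) and at 1000 nM (0.25, adjusted p = 0.0039), and IFIT1 at 300 nM (0.28) and 1000 nM (0.24). In that setting 1, 2 and 2 of the 36 members were higher at 100, 300 and 1000 nM. Over all genes it called 1.1%, 1.7% and 3.3% higher and 2.3%, 3.1% and 4.4% lower, so calls were rare in both. At 1000 nM voom also called 1 member higher at 6 h, against 1.30% of all genes higher and 1.58% lower.

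In DMSO alone many members were higher after 24 h than after 1 h. Of the 36 members 19 were called higher and 0 lower, against 9.78% and 8.45% of all genes, and 16 of the 32 members outside the group kept mostly by treated libraries were higher. The median member changed by 0.38, against -0.02 for all genes, and 21 members had an unadjusted p under 0.05 (30.6% of all genes). Voom called 23 higher and 0 lower, against 12.4% and 7.1% of all genes. By first-type libraries alone 20 were higher, against 12.4% of all genes, from 5 libraries at 24 h and 2 at 1 h. The 6 libraries with high MT-ND6 are all DMSO, 3 at 1 h and 3 at 3 h.

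IFIT1 had the largest change with time, at 23.5 ± 2.50 FPKM at 24 h against 8.78 ± 1.32 FPKM at 1 h (SD, n = 6 each), a log2 change of 1.38 ± 0.13 (adjusted p = 1.31e-11). Its lowest, median and highest values were 21.1, 22.8 and 27.3 FPKM at 24 h, against 7.17, 8.64 and 11.1 FPKM at 1 h, so the groups lay far apart. OASL followed at 0.96 ± 0.09 (adjusted p = 4.24e-11), with 8.38 to 10.9 FPKM at 24 h against 3.77 to 5.89 FPKM at 1 h. IFIT2 rose by 0.75, IFIT3 by 0.72 and HERC5 by 0.65 (adjusted p = 1e-05, 9.83e-08 and 2.74e-05). For HERC5 this meant 8.37 to 14.7 FPKM at 24 h, against 6.02 to 7.69 FPKM at 1 h. In these 5 genes no DMSO library at 24 h was as low as any at 1 h.

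Smaller rises with time, of 0.32 to 0.62, were called for IFIH1, DDX58, DDX60, SAMD9, HERC6, SAMD9L, PARP14, RSAD2, PARP9, OAS2, OAS1, DTX3L, TRIM22 and MX1. DDX60 measured 5.55 to 6.43 FPKM at 24 h against 2.94 to 4.48 at 1 h, and OAS2 measured 5.61 to 7.43 against 4.63 to 5.20 FPKM. Both were separate between the times. The call for SAMD9 was lost without the second-type DMSO library of 24 h (0.37, adjusted p = 0.0645), and that for RSAD2 without that library or without DMSO replicates 4 or 5 of 1 h (adjusted p up to 0.159). OAS1 was at 0.31 (adjusted p = 0.233) within the first type. Not past the threshold were IFI35 at 0.24 ± 0.16 (adjusted p = 0.32), BST2 at -0.14 and IFI27 at -0.20. IFI35 passed it without the second-type library of 24 h (0.45, adjusted p = 0.0129).

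In DMSO nearly all calls were for steps that end at 24 h. DMSO at 24 h against 6 h gave 20 members higher and 0 lower, against 4.96% and 4.38% of all genes, with 25 higher and 1 lower (TAP1) within the first type, against 13.8% of all genes higher. The count was 11 without DMSO replicate 2 of 24 h and 13 without DMSO replicate 4 of 6 h. Between 6 h and 1 h 0 members were higher and 1 lower, against 2.48% of all genes called, and between 3 h and 1 h 0 were called, against 0.536%, with 6 and 3 members at an unadjusted p under 0.05 (12% and 6.05% of all genes). The lower member was STAT2 at -0.61 (adjusted p = 0.0158), with -0.25 (adjusted p = 0.0636) in first-type libraries. Its call was lost without DMSO replicate 1, 4 or 5 of 1 h, which are the high MT-ND6 libraries of that time, or replicate 5 of 6 h (adjusted p up to 0.0808). Voom called 1 member higher and 3 lower between 6 h and 1 h, and 1 lower between 3 h and 1 h. Over all genes it called 2.56% higher and 2.48% lower between 6 h and 1 h, and 0.473% lower between 3 h and 1 h.

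**Figure D3:**
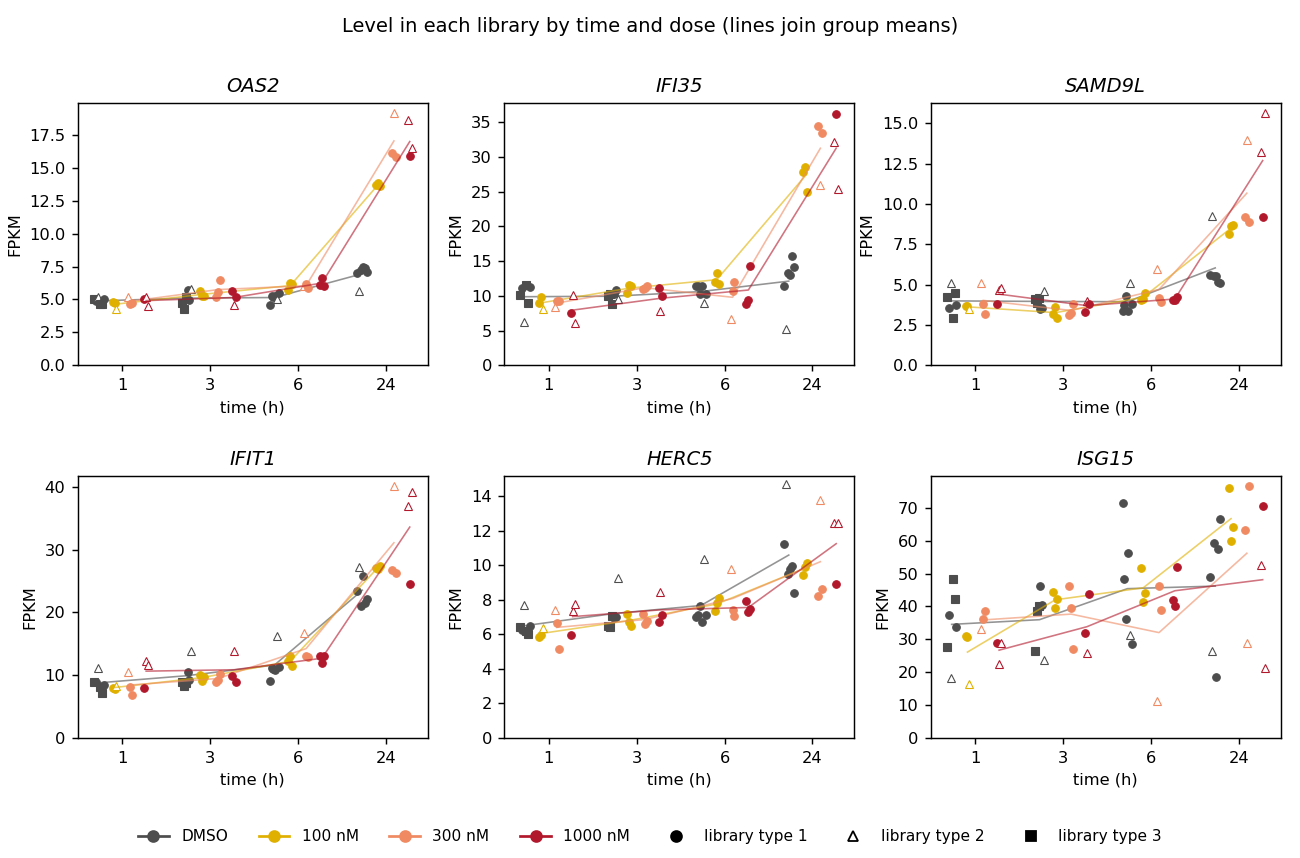
FPKM in each library at 1, 3, 6 and 24 h (horizontal axis, not to scale in time) for OAS2, IFI35, SAMD9L, IFIT1, HERC5 and ISG15 in DMSO and at 100, 300 and 1000 nM, with lines joining group means and symbols for library type. The doses separate from DMSO at 24 h in OAS2 and IFI35, whereas IFIT1 and HERC5 climb in DMSO as well and ISG15 scatters within groups.

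The time courses show how far compound and time can be set apart. OAS2 averaged 4.89 ± 0.225, 5.10 ± 0.589, 5.15 ± 0.326 and 6.95 ± 0.680 FPKM in DMSO at 1, 3, 6 and 24 h (SD, n = 6). At 1000 nM it averaged 4.91 ± 0.392, 5.15 ± 0.512, 6.25 ± 0.365 and 17.0 ± 1.42 FPKM (SD, n = 3). IFIT1 averaged 8.78 ± 1.32, 9.91 ± 2.03, 11.6 ± 2.44 and 23.5 ± 2.50 FPKM in DMSO, and 10.6 ± 2.35, 10.9 ± 2.63, 12.7 ± 0.654 and 33.6 ± 7.91 FPKM at 1000 nM. The 24 h step of OAS2 was thus mostly seen with compound, while that of IFIT1 was present in DMSO.

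To test this, the change of each dose effect between 6 and 24 h was fitted, which takes out what DMSO libraries of the same times share. It does not take out library type at 1000 nM. There all 3 libraries of 6 h were of the first type, whereas 2 of the 3 at 24 h were of the second. DMSO had 5 first-type libraries and 1 of the second type at both times. Over all libraries, time and library type can therefore not be told apart at 1000 nM. Members with a larger effect at 24 h than at 6 h numbered 3 at 100 nM, 8 at 300 nM and 10 at 1000 nM, and 0 had a smaller one, with 9, 11 and 15 members at an unadjusted p under 0.05 in either direction (12.8%, 25.6% and 26.3% of all genes) and 3, 6 and 7 called by voom. Among all genes 1.53%, 7.4% and 8.16% were called higher and 1.83%, 6.47% and 6.95% lower. The median member was at 0.28, 0.31 and 0.35, against 0.05, 0.07 and 0.05 for all genes. Outside the group kept mostly by treated libraries, 3, 7 and 8 of 32 were called, and within the first type 15, 13 and 13 of 36, against 7.73%, 13% and 11.5% of all genes higher. For those 32 members the first type gave 14 at 100 nM and 11 at 300 nM. Over all library types and all 36 members, the count at 1000 nM was 5 without 1000 nM replicate 1 of 6 h and 6 without replicate 2 of 6 h or replicate 3 of 24 h. At 100 nM it was 1 without any 1 of the 3 libraries of 6 h or replicates 1 and 2 of 24 h.

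At 1000 nM the members called in this test were IFI35 (1.39 ± 0.27, adjusted p = 0.000183), OAS2 (0.98 ± 0.11, adjusted p = 3.78e-09), SAMD9L (0.95), DDX60 (0.89), SAMD9 (0.84), OAS1 (0.65), ISG20 (0.63), PARP14 (0.54), DTX3L (0.49) and MX1 (0.47). OAS1 and ISG20 are among those kept by treated libraries alone. Leaving out 1 library ended the call in some cases for PARP14, SAMD9, OAS1, ISG20 and MX1, with an adjusted p of up to 0.103, 0.114, 0.156, 0.130 and 0.0568. For MX1 this was 1000 nM replicate 1 of 6 h, which also ended the other 4. In first-type libraries PARP14 and DTX3L missed the threshold (0.26 and 0.22, adjusted p = 0.151 and 0.156), as did OAS1 (0.75, adjusted p = 0.0514). IFI27 and BST2 were called within the first type, at 1.06 (adjusted p = 1.32e-05) and 0.49 (adjusted p = 0.0127). The genes with the largest rise in DMSO did not pass here, with IFIT1 at 0.34 (adjusted p = 0.351), IFIT2 at 0.35 (0.299), IFIT3 at 0.32 (0.201), OASL at 0.27 (0.291) and HERC5 at 0.10 (0.811). They were picked by the DMSO libraries of 24 h, whose level this test also subtracts, so a lower value is partly built in. The median member was at 0.35 in the same test, so missing the threshold does not set IFIT1, IFIT2 or IFIT3 apart. First-type libraries gave -0.13 for IFIT1 (adjusted p = 0.504) and -0.20 for HERC5 (0.254), while OASL was called at 0.45 (0.0358), as were IRF7, STAT2 and TAP1.

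**Figure D4:**
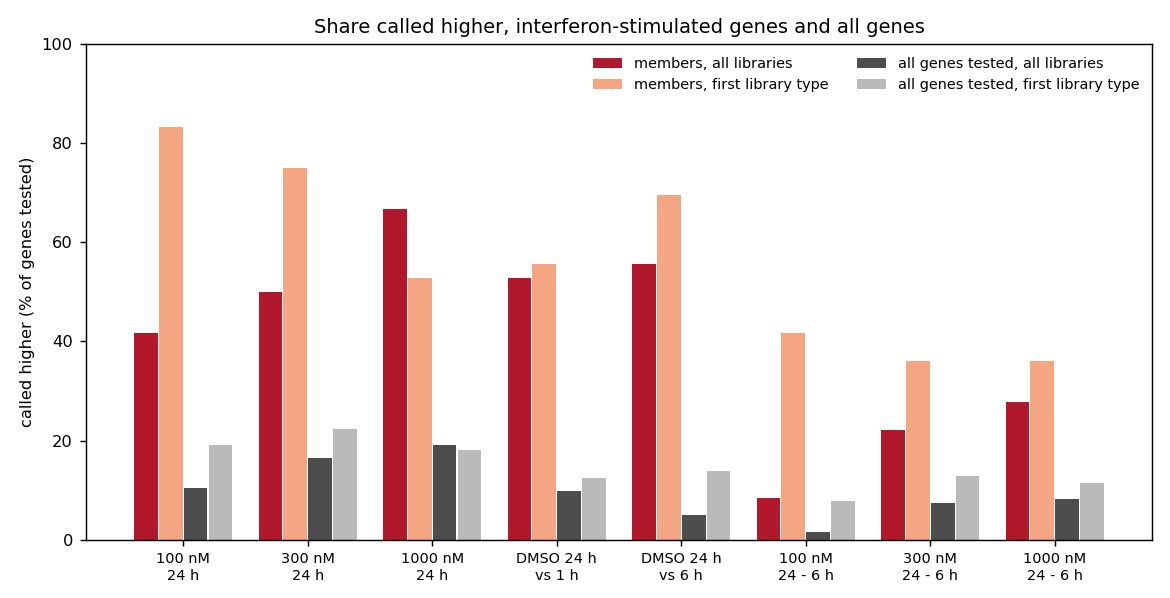
Percent of genes called higher (adjusted p under 0.05) among the 36 tested members and among all 15866 genes, over all libraries and within the first library type. The comparisons are 100, 300 and 1000 nM against DMSO at 24 h, DMSO at 24 h against 1 h and 6 h, and the change of each dose effect between 6 and 24 h, and in each the members' bar is the higher of the pair.

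Each compound comparison at 24 h and each DMSO comparison that includes 24 h use the same 6 DMSO libraries, so their values are set side by side and no overlap between them is counted. For the 1000 nM effect at 24 h and the change in DMSO between 1 and 24 h, IFI35 had 1.39 and 0.24, OAS2 1.23 and 0.46, IFI27 0.67 and -0.20, and BST2 0.45 and -0.14. SAMD9L had 1.01 and 0.53, DDX60 0.89 and 0.59, and MX1 0.68 and 0.32. OASL had 0.48 and 0.96, IFIT1 0.48 and 1.38, IFIT3 0.33 and 0.72, and HERC5 0.09 and 0.65. The order of the 2 values therefore differed between genes of the same family, as in OAS2 and OASL.

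Few differences between doses passed the threshold. At 24 h 1 member was higher and 0 lower at 1000 nM than at 100 nM, against 2.08% and 2.86% of all genes, with 12 members at an unadjusted p under 0.05 (21.2% of all genes) and 0 by voom. This was OAS2 (0.30 ± 0.09, adjusted p = 0.0464), at 18.6, 15.9 and 16.5 FPKM against 13.7, 13.8 and 13.6 FPKM, and at 0.21 (adjusted p = 0.243) within the first type. The call was lost without any 1 of 100 nM replicates 1, 2 and 3 or 1000 nM replicates 1 and 3. Without 1000 nM replicate 2, its only first-type library, 9 members were higher and 1 lower. That refit set 2 second-type libraries at 1000 nM against 3 first-type libraries at 100 nM, so dose and library type cannot be told apart in it. Its share over all genes is not given here.

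Counts for other lists of the pathway at 1000 nM after 24 h stand against 19.1% of all genes higher and 15.6% lower. Among genes for interferon receptors and their kinases, IFNGR1, a receptor chain for interferon gamma, rose by 0.65, JAK2 by 0.49, JAK1 by 0.44 and IFNAR1 by 0.41, and JAK2 and IFNAR1 missed the threshold within the first type (adjusted p = 0.555 and 0.129). Of the interferon ligands, IFNL1, IFNL2 and IFNL3 were at most 0.264, 0.107 and 0.102 FPKM in any library, and the type I interferon genes and IFNG were not analysed here.

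Of 16 tested genes for nucleic acid sensing and its adaptors, 5 were higher and 2 lower, near the shares over all genes. TMEM173 (STING), the adaptor for cyclic dinucleotides, rose by 1.18, the DNA sensor AIM2 was at 0.65, and MYD88, an adaptor of Toll-like receptors, rose by 0.55. MB21D1 (cGAS), which makes the cyclic dinucleotide, fell by 0.59. AIM2 was at 0.02 (adjusted p = 0.952) within the first type, where the other 3 kept their calls. Of 11 feedback inhibitors 2 were higher and 3 lower, also near those shares, including the signalling suppressor SOCS2 at -0.93, TRIM21 at 0.70, USP13 at -0.61 and the phosphatase PTPN1 at -0.60.

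Of 43 further interferon-stimulated genes outside the 41 members, 22 were higher and 5 lower at 1000 nM, against 19.1% and 15.6% of all genes. In DMSO at 24 h against 1 h 10 were higher and 2 lower, against 9.78% and 8.45% of all genes. The guanylate-binding protein gene GBP2 rose by 1.56 ± 0.10 (adjusted p = 2.83e-17), at 23.0 FPKM at 1000 nM against 7.42 FPKM in DMSO. PNPT1, a mitochondrial exoribonuclease, fell by 1.15, and GCH1, the first enzyme of tetrahydrobiopterin synthesis, fell by 1.00. The chemokine gene CXCL11 was at 1.00 (adjusted p = 0.0029), and at 0.24 (adjusted p = 0.645) within the first type. Of 18 genes of class I antigen presentation 7 were higher and 1 lower, and the class I gene HLA-E rose by 0.47, the chaperone genes CALR and PDIA3 by 0.49 and 0.53, and TAPBPL, a peptide editor, by 0.63.

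Markers of other cell types were low and partly moved with the compound. The 5 luminal and receptor markers summed to 20.0 to 23.6 FPKM at 1000 nM and 13.5 to 17.0 FPKM in DMSO at 24 h, with CDH1 and EPCAM higher. The 8 immune markers found summed to 3.42 to 4.92 FPKM at 1000 nM and 1.17 to 2.39 FPKM in DMSO at 24 h, and 1 of the 2 tested was higher, LYZ at 2.22 against 0.563 FPKM. The defining markers CD3E and PTPRC were at 0 and at most 0.101 FPKM in any library. The 5 fibroblast markers summed to 6.08 to 7.11 FPKM at 1000 nM against 3.25 to 5.89 FPKM in DMSO, with 1 of 3 tested higher (COL1A2), and DCN at most 0.0615 FPKM. The 3 endothelial markers found summed to 0.316 to 0.575 FPKM against 0.614 to 1.12 FPKM, with 1 of 1 tested lower (KDR), and CDH5 at most 0.0208 FPKM. The 13 mitochondrially encoded messages summed to 16032 to 17859 FPKM at 1000 nM, against 11409 to 14857 FPKM in DMSO at 24 h, with no overlap and with 1 of 13 called higher (MT-ND3). Their median log2 change was 0.36, 0.51 and 0.41 at 100, 300 and 1000 nM, and -0.58 in DMSO at 24 h against 1 h, with 4 of 13 called lower. The part of any of these lists in the members' changes was not tested.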

How the data were processed

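Poly(A) RNA of 60 libraries was sequenced as single reads from stranded libraries, per the labels' protocols. STAR 2.4.2a, featureCounts 1.4.6-p2 (Subread), DESeq2 and hg19 are named in the submitters' processing notes, and no annotation release is named. The deposited values are log2(FPKM + 1), whereas the tests had been planned for FPKM, so they were converted back. Whole reads were recovered from the FPKM steps, and of 1304094 values above 0, 100% came out whole to a tolerance of 0.01 read. Reads carry no molecular identifiers, so depth covers counting error only.

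The package limma 3.58.1 (R 4.3.3) was fitted to log2(FPKM + 0.5) of 15866 genes with at least 1 FPKM in at least 3 of 60 libraries, out of 36114 above 0, with 16 group means, 44 residual degrees of freedom, a trend and robust variances. Calls use a Benjamini-Hochberg adjusted p under 0.05 over all genes tested in each of 20 comparisons. The pseudocount of 0.5 understates changes of low genes. On recovered reads, voom called 2328 genes higher and 2851 lower at 1000 nM after 24 h, against 3025 and 2481 over FPKM. Library types came from the values of 6 pseudogenes minus 5 others, and of MT-ND6 above 30 FPKM.

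The members and lists were chosen with earlier results of these data known. Values in every library are given for members called at 1000 nM after 24 h or in DMSO between 1 and 24 h, at most 4 per role by largest change. Of other lists at most 4 called genes are named. Some results are not reported here. STAT2, ISG15, IRF7 and BST2 were given library values after these were seen. The fitting code was tested on simulated data. The alternatives numbered 8 besides leaving out each library.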

Additional observations from a re-analysis of the deposited data

Results flagged for a closer look

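In 14 of 64 groups of 6 DMSO libraries, 1 library lay far from the other 5, where chance flags about 1 in 20 of independent groups. These groups are not independent, since 16 genes share the same 4 sets of libraries, and all 14 cases come from 4 libraries of the second type. DMSO replicate 2 at 24 h, the library with the fewest reads, was lowest for OAS2 (5.61 FPKM, against 7.02 to 7.43 in the others), and highest for IFIT2 (41.4, against 25.4 to 29.4), SAMD9L (9.26, against 5.10 to 5.61), SAMD9 (14.5, against 5.88 to 7.30), MX1 (3.60, against 2.47 to 2.74) and PARP14 (7.28, against 4.81 to 5.70). DMSO replicate 5 at 6 h was highest for DDX60 (5.13, against 2.95 to 3.75), IFIT1 (16.3, against 9.07 to 11.3) and HERC5 (10.4, against 6.72 to 7.66). DMSO replicate 6 at 3 h was highest for DDX60 (4.24, against 2.80 to 3.33), IFIT2 (26.1, against 17.0 to 19.1) and HERC5 (9.28, against 6.45 to 7.05). DMSO replicate 3 at 1 h was highest for IFIT3 (48.7, against 34.8 to 39.8) and HERC5 (7.69, against 6.02 to 6.46). The part of library type in these values was not tested.

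The effect of the compound was larger at 24 h than at 6 h, by limma's test of the difference, in 21 pairs of a member and a dose. Over all genes 1.53%, 7.4% and 8.16% had a larger effect at 100, 300 and 1000 nM. At 1000 nM the library types differed between 6 and 24 h, so time and type cannot be told apart there. The pairs include OAS1 at 1000 nM and ISG20 at 300 and 1000 nM, which treated 24 h libraries alone brought past the filter, so these are a description. At 1000 nM the differences in log2 change were 1.39 for IFI35, 0.98 for OAS2, 0.95 for SAMD9L, 0.89 for DDX60, 0.84 for SAMD9, 0.65 for OAS1, 0.63 for ISG20, 0.54 for PARP14, 0.49 for DTX3L and 0.47 for MX1. At 300 nM they were 1.54 for IFI35, 1.02 for OAS2, 0.96 for ISG20, 0.95 for IFI27, 0.60 for DDX60, 0.51 for MX1, 0.50 for BST2 and 0.36 for DTX3L. At 100 nM they were 0.99 for IFI35, 0.72 for OAS2 and 0.44 for MX1.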

How the results depend on the processing

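Calls among the 36 members kept to within 1.5 times their number in every setting not named here. With only the groups compared in the fit, 9, 11 and 13 members were called at 100, 300 and 1000 nM after 24 h, 0 at 300 nM after 6 h, 11 in DMSO at 24 h against 6 h, 0 in DMSO at 6 h against 1 h, 1, 3 and 5 for the change of the 100, 300 and 1000 nM effects between 6 and 24 h, and 0 between 1000 and 100 nM. After 24 h this setting called 5.99%, 8.48% and 9.71% of all genes higher at the 3 doses, and 6.40%, 8.51% and 9.12% lower. For the changes of effect the shares were 0.92%, 3.21% and 4.80% higher, and 1.25%, 3.83% and 4.72% lower. In DMSO at 24 h against 6 h they were 1.41% and 0.92%. In the other comparisons named for this setting, no share exceeded 0.347% in either direction. With library type terms the counts were 27 at 100 nM after 24 h, 1 at 1000 nM after 6 h, 3 and 1 in DMSO at 6 h and 3 h against 1 h, and 7, 14 and 18 for the changes of effect. Within the first type they were 30 at 100 nM and 29 at 300 nM after 24 h, 1, 2 and 2 at 100, 300 and 1000 nM after 6 h, 2 in DMSO at 6 h and 2 at 3 h against 1 h, 15 and 13 for the change of the 100 and 300 nM effects, and 0 between 1000 and 100 nM. Over all genes the first type called 19.0% and 22.3% higher and 16.7% and 20.5% lower at 100 and 300 nM after 24 h. For the change of these 2 effects the shares were 7.73% and 13.0% higher, and 7.61% and 12.4% lower. In DMSO they were 2.38% and 1.55% at 6 h, and 0.756% and 1.39% at 3 h, against 1 h. Without the libraries under 2 M reads the member counts were 1 at 1000 nM after 6 h, 3 and 1 in DMSO at 6 h and 3 h against 1 h, and 4 between 1000 and 100 nM. Shares over all genes in this setting are not given here. By voom the member counts were 1 at 1000 nM after 6 h, 4 and 1 in DMSO at 6 h and 3 h against 1 h, and 0 between 1000 and 100 nM. Between 1000 and 100 nM voom called 1.25% of all genes higher and 2.23% lower. No filter gave 1 and 4 for the change of the 100 and 300 nM effects, and 0 between 1000 and 100 nM. For these changes it called 0.554% and 2.88% of all genes higher, and 0.648% and 2.47% lower. A pseudocount of 0.1 gave 2 in DMSO at 6 h against 1 h and 0 between 1000 and 100 nM, and its shares over all genes are not given here. HERC5 at 1000 nM after 24 h was 0.09, and -0.11 with type terms, -0.12 within the first type and -0.0042 by voom. The cause of these shifts was not tested.

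Leaving out 1 library gave 10 to 16, 13 to 21 and 17 to 24 members at 100, 300 and 1000 nM after 24 h, 0 to 1 at 300 nM after 6 h, 18 to 21 and 11 to 20 for DMSO at 24 h over 1 h and over 6 h, 0 to 3 for 6 h over 1 h, 0 to 1 for 3 h over 1 h, 1 to 3, 6 to 9 and 5 to 13 for the changes of effect, and 0 to 10 between 1000 and 100 nM. Shares over all genes are not given for these refits. Over all genes voom shifted the split of calls from 2617 higher and 2247 lower to 2508 and 3747 at 300 nM after 24 h, from 1552 and 1341 to 1973 and 1121 in DMSO at 24 h against 1 h, from 787 and 695 to 952 and 449 against 6 h, and from 1174 and 1027 to 1202 and 1999, and 1295 and 1103 to 847 and 1480, for the change of the 300 and 1000 nM effects. No paired analysis was possible because the labels number the samples consecutively and groups share no replicate number. At 0.475 M to 2.58 M reads, the second-type libraries of 24 h at 1000 nM and in DMSO limit the precision of members under about 1 FPKM. At 100 nM after 24 h the calls for PARP9, DTX3L, PARP14 and SAMD9L, and at 300 nM those for IFIH1, PARP9, HERC6, SAMD9 and DDX58, were lost without 1 library in some cases, at 300 nM always including replicate 2 (adjusted p up to 0.368).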
